A study of Mus musculus with 32 samples.

Results

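The colony-stimulating factors and their receptors were described across 8 groups of macrophages. The 9 genes are the ligands Csf1, Csf2 and Csf3 and the receptor chains Csf1r, Csf2ra, Csf2rb, Csf2rb2, Csf3r and Il3ra, out of 25067 genes in the table. They were chosen by name, and each is given by its transcript with the highest mean count. Of the 9, 8 passed the filter on low values and were tested among 11281 genes. Csf3 did not pass and is given by its counts.

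Colony-stimulating factors are secreted proteins that keep myeloid cells alive and drive their growth and maturation. Csf1 encodes M-CSF, which signals through the tyrosine kinase receptor encoded by Csf1r and is the factor on which cultured macrophages depend. Csf2 encodes GM-CSF, whose receptor joins the alpha chain from Csf2ra to the common beta chain from Csf2rb, a chain that the receptors for IL-3 and IL-5 share. Csf2rb2 encodes a second beta chain, found in mice, that serves the IL-3 receptor together with the alpha chain from Il3ra. Csf3 encodes G-CSF, the main growth factor of neutrophils, and Csf3r its receptor. The receptors without a kinase of their own signal through Jak kinases and Stat factors, and proteins of the Socs family limit that signal.

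RNA-seq was measured in bone marrow-derived macrophages (BMDMs) of C57Bl6/J background from wild-type mice (BMDM-WT) and from mice lacking Nur77 (BMDM-Nur77-KO), the nuclear receptor encoded by Nr4a1. The mice were male and 6 to 12 weeks old. The knockout lacks Nur77 in the whole body, after deletion of a loxP-flanked Nr4a1 gene by Cre recombinase driven by the CMV promoter and later breeding to remove the Cre gene; the labels give its genotype as cre, and the wild-type mice were littermates. Bone marrow cells of both genotypes were cultured for 7 days with 15% L929-conditioned medium, which is a source of M-CSF, so all groups had been exposed to the ligand of Csf1r. The cells of both genotypes then received 100 ng/ml LPS, the Toll-like receptor 4 agonist from bacterial walls, for 0, 1, 5 or 18 h, with 4 libraries per group and 32 in all. The methods do not say how many animals the wells came from, so the p-values measure the spread between these libraries, which may be technical.

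Library totals ranged from 8742362 to 15780926 tags. Nr4a1 averaged 19.7 CPM (counts per 1000000 tags of the TMM-scaled library total) in BMDM-WT and 5.24 CPM in BMDM-Nur77-KO at 0 h, and 437 and 191 CPM at 1 h; a value for the gene as a whole does not separate deleted from remaining exons. The 8 macrophage markers summed to 10736 to 17436 CPM in every library, whereas those of B cells stayed at or under 1.31 CPM, of T and NK cells at or under 0.95, of fibroblasts at or under 3.93, of mast cells and basophils at or under 0.327 and of erythroid cells at or under 0.245. The 8 neutrophil markers summed to 12.0 to 37.2 CPM and the 4 eosinophil markers to 5.88 to 205, led by Ccr3, with Epx at 0. The 6 dendritic cell markers, led by Itgax, summed to 155.8 to 200.9 CPM in BMDM-WT and 425.8 to 466.6 in BMDM-Nur77-KO at 0 h. At 18 h they summed to 36.3 to 40.9 and 99.8 to 117.4. Itgax alone averaged 173 and 440 CPM at 0 h and 35.0 and 102 at 18 h, so these sums mostly describe that gene. The part of these markers in the genotype differences of the receptors was not tested. The libraries of BMDM-Nur77-KO at 5 h replicate 1 and at 18 h replicate 4 stood apart. The GC content of their tags was 47.0% and 48.4%, against at least 48.1% and 49.3% in the other libraries of their groups. The main differences described for these knockout groups are given also without them. In BMDM-WT at 18 h, replicate 3 was also low, at 49.0% against at least 49.7% in the others of its group. That wild-type library was kept in the values given, apart from fits that left out each library in turn.

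In BMDM-WT, 2 of the 8 tested genes passed the limits (adjusted p under 0.05 with a log2 fold change above 1 in size) at 1 h of LPS, 4 at 5 h and 2 at 18 h, all of them upward. Over all genes tested, 5.19%, 33.7% and 27.4% passed in either direction. In BMDM-Nur77-KO the counts were 2, 3 and 2, all upward, beside 4.53%, 32.6% and 31.8% of all genes. Csf1 and Csf2 were the genes called at 1 h in both genotypes. Between 1 and 5 h, 2 rose and 1 fell in BMDM-WT (30.2% of all genes) and 1 fell in BMDM-Nur77-KO (31.2%), and between 5 and 18 h, 1 rose and 1 fell in BMDM-WT (30.1%) and likewise in BMDM-Nur77-KO (28.6%). Between the genotypes, with a log2 limit of 0.58, 0 of 8 passed at 0 h (4.81% of all genes) and 0 at 1 h (2.86%), by edgeR's quasi-likelihood test as by DESeq2. In edgeR's test, 5 and 2 had an unadjusted p under 0.05, a limit for which the share of all genes was not computed. At an adjusted p under 0.05 without the fold limit they were 2 and 0, beside 12.7% and 6.51% of all genes. At 5 h, Csf2ra was higher and Csf3r lower in BMDM-Nur77-KO (8.75% of all genes). At 18 h, Csf1 and Csf2 were higher and Csf1r lower (9.82%). The LPS response itself differed between the genotypes for 0 of the 8 at 1 h (0.0709%) and 0 at 5 h (3.09%), with 1 and 1 at an unadjusted p under 0.05 and 0 by DESeq2, and for Csf1 at 18 h (9.41%). Csf2 had 0 counts in every library at 0 h, so its response has no measured baseline and these counts decide nothing about it. The share of all genes at that unadjusted limit was again not computed. Each adjusted p-value given here is Benjamini-Hochberg adjusted over the genes tested and comes from the quasi-likelihood test of edgeR, unless DESeq2 is named.

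Csf1 rose early, peaked at 5 h and returned most of the way by 18 h in BMDM-WT, while a higher level remained in BMDM-Nur77-KO. In BMDM-WT its levels were 65.3, 77.8, 70.8 and 65.4 CPM at 0 h and 217.7, 218.7, 201.5 and 222.8 at 1 h. At 5 h they were 366, 390, 403 and 384 CPM, and at 18 h 83.3, 81.8, 80.8 and 84.2. The 4 libraries of each time lay close together, and no time overlapped another. In BMDM-Nur77-KO the levels were 74.1, 83.8, 87.1 and 85.2 CPM at 0 h and 230, 240, 223 and 252 at 1 h. They reached 437, 411, 420 and 414 CPM at 5 h and were 164, 168, 180 and 145 at 18 h. Every 18 h library of the knockout lay above every 18 h library of BMDM-WT, and above every 0 h library of either genotype.

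The Csf1 response at 1 h was a log2 fold change of 1.62 ± 0.07 (SE) in BMDM-WT (adjusted p = 3.6e-18) and 1.52 ± 0.07 in BMDM-Nur77-KO (adjusted p = 1.9e-17). At 5 h it was 2.47 ± 0.07 and 2.35 ± 0.07 (adjusted p = 2.4e-23 and 7.1e-23). From 5 to 18 h, Csf1 fell by 2.23 on the log2 scale in BMDM-WT and by 1.35 in BMDM-Nur77-KO. The genotypes thus parted in the late phase. At 18 h, Csf1 was 1.99-fold higher in BMDM-Nur77-KO (log2 fold change 0.99 ± 0.07, adjusted p = 3.0e-12). Against its own 0 h level, Csf1 at 18 h stood at a log2 fold change of 0.24 in BMDM-WT and 0.99 in BMDM-Nur77-KO, the latter just under the limit of 1. Without replicate 4 of the knockout at 18 h, of low GC content, the latter was 1.05 and passed, and the genotype difference was also 1.05. The difference between these responses was 0.75 ± 0.10 (adjusted p = 3.0e-06), and it was called with every library left out in turn. At the other times, the genotype differences were 0.24 at 0 h (adjusted p = 0.0200), 0.13 at 1 h (95% interval 0.00 to 0.27, adjusted p = 0.32) and 0.12 at 5 h (-0.01 to 0.26, adjusted p = 0.18), all under the limit.

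Csf1 lies on the minus strand of chromosome 3 (GRCm38, 107741048 to 107760469), and the table holds 3 of its transcripts. NM_001113529 carried a mean of 72.2% to 76.0% of the counts of the kept transcript, NM_007778, over the 8 groups, and NM_001113530 a mean of 43.5% to 47.9%. In BMDM-Nur77-KO at 5 h replicate 1 the former was at its lowest, 64.1%, and the latter at its highest, 54.6%. The transcripts share exons, so their counts are not independent. The promoter of Csf1 is shown because its response to LPS was the clearest to differ between the genotypes. RefSeq's window of 250 bases before to 50 after the start (GRCm38) was searched on both strands for the motif of NF-kB (kappaB), the AP-1 motif TGANTCA, the NBRE AAAGGTCA, which Nur77 binds as a monomer, and the GAS motif TTCNNNGAA of the Stat factors. It held 1 kappaB match, in capitals, at -154 from the start, and none of the other motifs. Over all 27025 promoters of this length, 4.35% held a kappaB match, 7.93% AP-1, 1.46% NBRE and 8.47% GAS. A match of letters is a description and not a bound site.
Csf1 promoter, chr3:107760420-107760719, minus strand: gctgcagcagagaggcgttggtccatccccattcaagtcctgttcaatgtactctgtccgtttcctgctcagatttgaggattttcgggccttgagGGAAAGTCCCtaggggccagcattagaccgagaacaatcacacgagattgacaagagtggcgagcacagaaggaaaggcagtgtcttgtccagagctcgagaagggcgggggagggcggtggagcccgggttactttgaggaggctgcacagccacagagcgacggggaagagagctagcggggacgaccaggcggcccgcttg

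**Figure D1:**
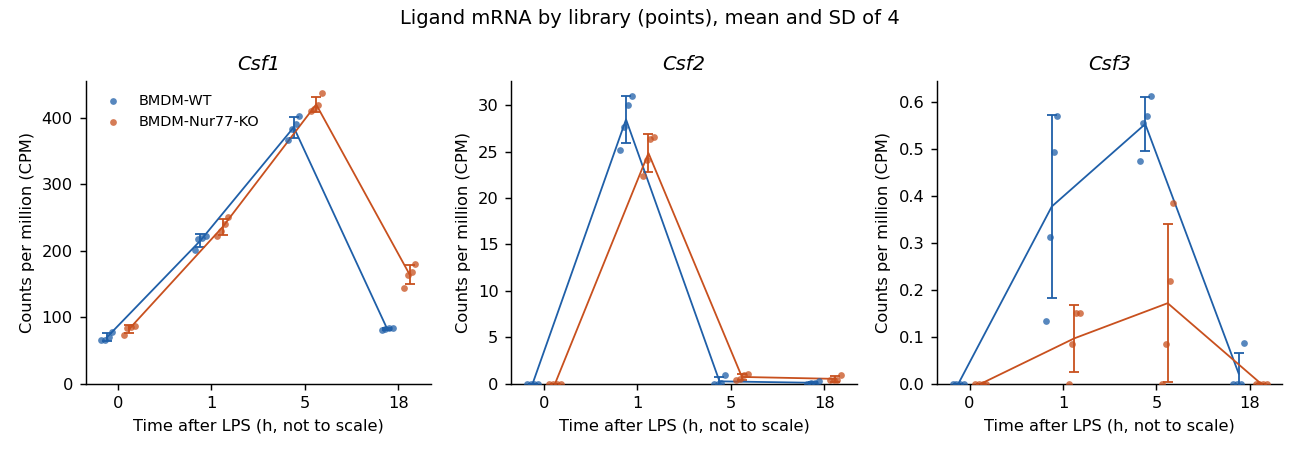
Levels of Csf1, Csf2 and Csf3 by hours of LPS in BMDM-WT and BMDM-Nur77-KO, as CPM for each library (points) with the mean and SD of each group of 4. Csf1 peaks at 5 h and is 145 to 180 CPM in BMDM-Nur77-KO against 80.8 to 84.2 in BMDM-WT at 18 h, whereas Csf2 is high at 1 h alone.

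Csf2 was a pulse at 1 h. It had 0 counts in all 8 libraries at 0 h, which allows up to 0.229 CPM in BMDM-WT and 0.273 in BMDM-Nur77-KO at 3 counts in the shallowest library. At 1 h it had 389, 426, 377 and 297 counts in BMDM-WT, or 27.6, 30.0, 25.2 and 31.0 CPM. In BMDM-Nur77-KO it had 308, 320, 280 and 354 counts, or 26.3, 24.1, 22.3 and 26.6 CPM. Against these limits, the mean of BMDM-WT at 1 h was at least 124-fold higher and that of BMDM-Nur77-KO at least 90.9-fold. The 1 h groups overlapped, and the knockout held 0.881 of the wild-type counts per depth (95% interval 0.816 to 0.9498, counting error only, which leaves out the spread between libraries).

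By 5 h, Csf2 had 0, 0, 1 and 8 counts in BMDM-WT and 10, 6, 10 and 4 in BMDM-Nur77-KO. At 18 h it had 1, 0, 1 and 3 counts in BMDM-WT and 4, 4, 6 and 12 in BMDM-Nur77-KO. No knockout library was at 0 at these times. The mean knockout level was at least 2.70-fold above the limit of its own 0 h group at 5 h and at least 1.94-fold at 18 h. The ratio of summed counts per depth, knockout over wild type, was 2.75 at 5 h (95% interval 1.27 to 6.59) and 4.73 at 18 h (1.79 to 15.8), with counting error only. The 5 h ratio was lowered by BMDM-WT replicate 4, without which 1 wild-type count was left and the ratio was 18.7 (3.11 to 762). The 5 h difference did not pass in edgeR's quasi-likelihood test (log2 fold change 1.43, adjusted p = 0.109), but did without that library (3.91, adjusted p = 0.0026) and with DESeq2 (1.48, adjusted p = 0.034). In edgeR's quasi-likelihood test the 18 h difference was a log2 fold change of 2.14 (adjusted p = 0.0449). It was called in 3 of the 8 fits that left out a library. It was lost without BMDM-WT replicate 1, 2 or 3 or BMDM-Nur77-KO replicate 3 or 4 (adjusted p of 0.054 to 0.187), and in a fit to those 8 libraries alone (adjusted p = 0.060). The difference was 1.68 without BMDM-Nur77-KO replicate 4, the library with 12 counts, and 2.93 without BMDM-WT replicate 4, with 3 of the 5 wild-type counts. The call of the Csf2 response in BMDM-WT at 5 h rested on replicate 4, with 8 of the 9 counts (adjusted p = 0.169 without it). That at 18 h, on 5 counts, held in 1 of the 8 fits that left out a library. The antisense gene Gm12223 overlaps 2068 bases of Csf2 (chromosome 11, 54247270 to 54249899, minus strand). The libraries are strand-specific, but whether the counting used the strand is not given in the sources used here.

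The 3′ UTR of Csf2 is the textbook AU-rich element, a run of ATTTA pentamers bound by proteins that hasten mRNA decay. Its annotated 3′ UTR of 317 bases held 9 ATTTA pentamers and 4 copies of the nonamer TTATTTATT, overlaps included. Of 9753 genes tested with an annotated 3′ UTR, 7.11% held at least 1 nonamer and 1.35% at least 2. At least 3 pentamers were held by 34.0% of them and at least 8 by 8.52%. Csf3 held 6 pentamers, Csf1 4 in a far longer UTR of 2111 bases and Csf1r 2, while Csf2ra, Csf2rb, Csf2rb2, Csf3r and Il3ra held none. Per length, Csf2 held the most, and the half-lives of these transcripts were not measured. The densest stretch of 30 bases in each ligand is printed with the pentamers in capitals, from GRCm38.
Csf2, chr11:54247329-54247358, minus strand: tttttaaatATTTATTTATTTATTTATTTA
Csf3, chr11:98702984-98703013, plus strand: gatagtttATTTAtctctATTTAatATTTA
Csf1, chr3:107741109-107741138, minus strand: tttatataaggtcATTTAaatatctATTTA

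Csf3 was barely detected, with more counts in BMDM-WT. It had 8, 7, 2 and 3 counts at 1 h and 5, 5, 5 and 4 at 5 h in BMDM-WT. In BMDM-Nur77-KO it had 1, 2, 0 and 2 counts at 1 h and 2, 1, 4 and 0 at 5 h. At 0 h all 8 libraries were at 0, and at 18 h all but 1 BMDM-WT library, which had 1 count. The wild-type over knockout ratio of summed counts per depth was 3.85 at 1 h (95% interval 1.40 to 13.1) and 3.29 at 5 h (1.32 to 9.26), with counting error only. At 1 h and at 5 h the lowest wild-type count equalled the highest knockout count.

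Csf1r, the M-CSF receptor that marks the macrophage lineage, was the most abundant of the 9 genes in every group and stood lower at the late times of LPS, by less than the limit. In BMDM-WT its levels were 1760, 1590, 2107 and 1942 CPM at 0 h and 2047, 1923, 1774 and 1724 at 1 h. They were 1173, 1309, 1390 and 1223 CPM at 5 h and 1156, 1095, 1103 and 1240 at 18 h. The levels at 0 and 1 h overlapped, as did those at 5 and 18 h, while each early time lay above each late time. In BMDM-Nur77-KO the levels were 1416, 1416, 1372 and 1642 CPM at 0 h and 1765, 1567, 1577 and 1573 at 1 h. They were 637, 984, 1199 and 1157 CPM at 5 h and 814, 824, 797 and 549 at 18 h. The lowest library of each late knockout group was the one of low GC content.

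Csf1r differed from 0 h by a log2 fold change of -0.54 ± 0.13 at 5 h (adjusted p = 0.00075) and -0.69 ± 0.13 at 18 h (adjusted p = 4.8e-05) in BMDM-WT, under the limit of 1. In BMDM-Nur77-KO it differed by -0.56 and -0.97, and by -0.39 and -0.85 without the library of low GC content. With the GC content of each library as a covariate, the values at 5 h became 0.02 in BMDM-WT and -0.04 in BMDM-Nur77-KO, while those at 18 h were -0.57 and -0.93. Tag GC content was itself lower at 5 h (medians 48.6% and 48.3%) than at 0 h (49.8% and 49.2%), and it is computed from the same counts as the levels, so at 5 h the time and the GC content cannot be told apart. At 18 h, BMDM-Nur77-KO had less Csf1r than BMDM-WT (log2 fold change -0.62 ± 0.13, adjusted p = 0.00086), and the groups did not overlap. Without replicate 4 of the knockout the difference was -0.50 (adjusted p = 0.0061) and with the GC covariate -0.46 (adjusted p = 3.0e-07), both under the limit of 0.58. At 0, 1 and 5 h the genotype differences were -0.34, -0.20 and -0.36, with adjusted p of 0.098, 0.50 and 0.051, and that at 5 h was -0.19 without replicate 1 of the knockout. Csf1r lies on chromosome 18 (61105572 to 61131139) and overlaps Hmgxb3 on the opposite strand by 873 bases.

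Csf3r, the G-CSF receptor, had the largest late rise of the receptors, in both genotypes. In BMDM-WT its levels were 55.1, 46.4, 67.1 and 50.6 CPM at 0 h and 62.5, 58.5, 49.6 and 46.7 at 1 h. They were 155, 151, 150 and 166 CPM at 5 h and 354, 362, 300.2 and 373 at 18 h. The 0 and 1 h levels overlapped, and the levels rose at each later step. In BMDM-Nur77-KO the levels were 31.8, 42.4, 38.2 and 44.4 CPM at 0 h and 51.7, 44.2, 46.6 and 49.0 at 1 h. They were 51.8, 99.1, 101.05 and 125 CPM at 5 h and 321, 347, 311 and 220.1 at 18 h. The 5 h library at 51.8 CPM was replicate 1, of low GC content. The 8 neutrophil markers summed in BMDM-WT to 12.0 to 21.1 CPM at 0 h, 21.4 to 28.2 at 1 h, 24.7 to 32.3 at 5 h and 15.4 to 18.2 at 18 h. In BMDM-Nur77-KO they summed to 19.0 to 26.2, 30.8 to 37.2, 27.2 to 33.2 and 15.5 to 20.5 CPM. Their part in the changes of Csf3r was not tested.

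The Csf3r response in BMDM-WT was a log2 fold change of 1.51 ± 0.17 at 5 h (adjusted p = 3.6e-09) and 2.67 ± 0.18 at 18 h (adjusted p = 2.2e-14), or 6.35-fold. In BMDM-Nur77-KO it was 1.27 ± 0.17 and 2.93 ± 0.18, or 7.63-fold at 18 h (1.47 and 3.05 without the library of low GC content), and the responses were not shown to differ (interaction at 18 h 0.27, 95% interval -0.20 to 0.73, adjusted p = 0.60). With the GC covariate the responses were 2.18 in BMDM-WT and 1.88 in BMDM-Nur77-KO at 5 h, and 2.80 and 2.98 at 18 h. The wild-type step from 5 to 18 h was then 0.62, under the limit. Time and GC content cannot be told apart at 5 h. At 5 h, Csf3r was lower in BMDM-Nur77-KO (log2 fold change -0.72 ± 0.17, adjusted p = 0.0028), and every knockout library lay below every wild-type library. Without replicate 1 of the knockout the value was -0.52 (adjusted p = 0.0079), with the GC covariate -0.49 (adjusted p = 1.0e-04), and in a fit to those 8 libraries alone -0.72 (adjusted p = 0.11), none of which passed. Csf3r lies on chromosome 4 (126023441 to 126044975).

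**Figure D2:**
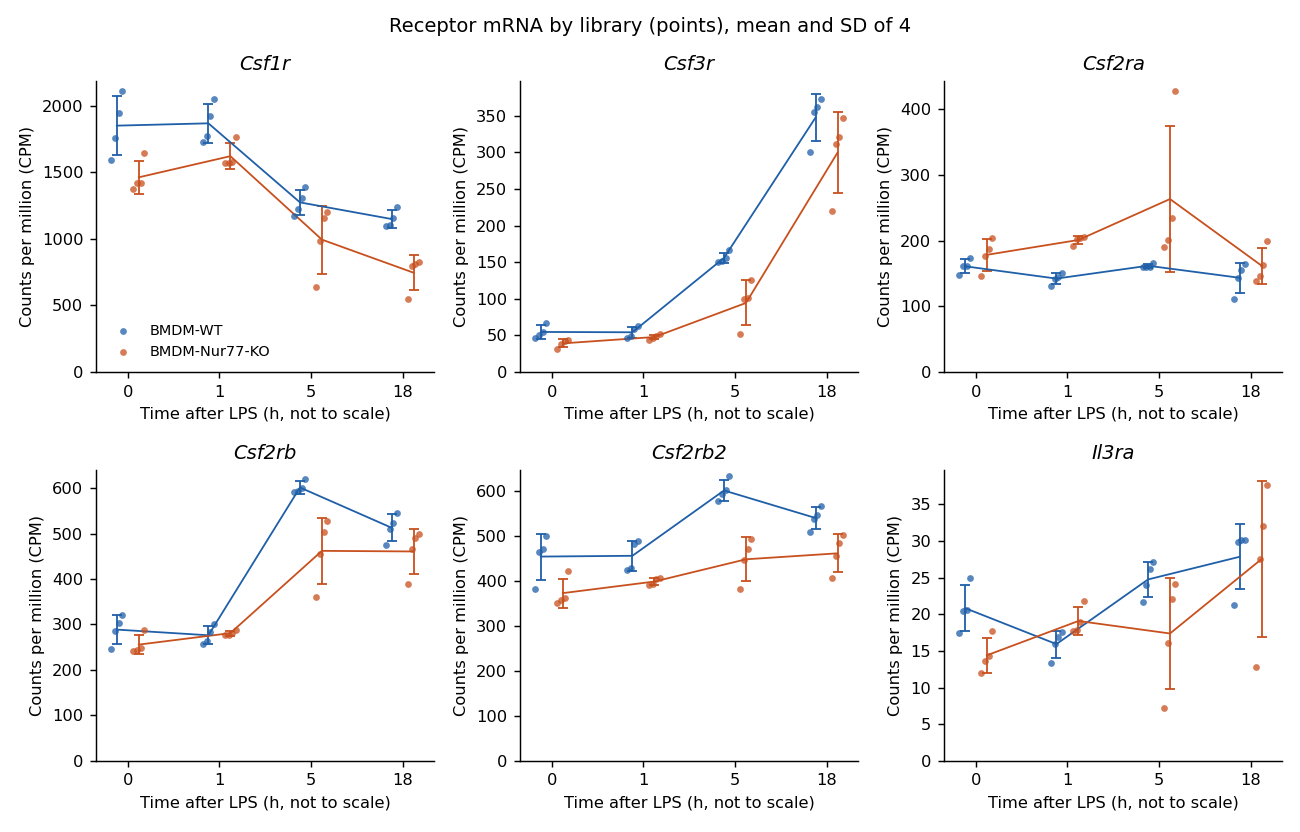
Levels of the 6 receptor genes by hours of LPS in BMDM-WT and BMDM-Nur77-KO, as CPM for each library (points) with the mean and SD of each group of 4. Csf3r rises from 31.8 to 67.1 CPM at 0 h to 220.1 to 373 at 18 h over both genotypes, Csf2rb is higher at 5 and 18 h, and Csf1r is lower.

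The chains of the GM-CSF and IL-3 receptors changed to different extents. Csf2rb, the common beta chain, had 285, 246, 322 and 302 CPM in BMDM-WT at 0 h and 599.6, 593, 621 and 592 at 5 h. In BMDM-Nur77-KO it had 242, 248.97, 245 and 287 CPM at 0 h and 362, 455, 504 and 527 at 5 h. At 5 h no library overlapped its 0 h group, and every knockout library lay below the wild type. The response was a log2 fold change of 1.06 ± 0.10 at 5 h (adjusted p = 3.0e-11) and 0.83 ± 0.10 at 18 h in BMDM-WT, and 0.85 at both times in BMDM-Nur77-KO. The wild-type call at 5 h lay at the limit, at 0.99 without BMDM-WT at 0 h replicate 2. Without replicate 1 of the knockout at 5 h, the knockout response was 0.95 at that time. The genotype difference at 5 h was -0.38 (adjusted p = 0.0050), under the limit, and -0.28 without that library (adjusted p = 0.027). With the GC covariate, the responses at 5 h were 1.43 in BMDM-WT and 1.21 in BMDM-Nur77-KO, both past the limit. The genotype difference was then -0.24 (adjusted p = 0.00093).

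Csf2rb2, the beta chain of the IL-3 receptor alone, moved less. It had 472, 382, 500.2 and 464 CPM in BMDM-WT at 0 h and 578, 602, 633 and 593 at 5 h. In BMDM-Nur77-KO it had 357, 351, 362 and 421 CPM at 0 h and 381, 447, 471 and 494 at 5 h. Its response at 5 h was 0.40 ± 0.08 and 0.27 ± 0.08 on the log2 scale, under the limit in both genotypes. It was lower in BMDM-Nur77-KO by -0.28, -0.19, -0.42 and -0.23 at 0, 1, 5 and 18 h, of which the values at 0 and 5 h had adjusted p of 0.024 and 0.00066, and none reached the limit. Without replicate 1 of the knockout at 5 h, the difference at 5 h was -0.35 (adjusted p = 0.0037).

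Csf2rb and Csf2rb2 are neighbours on chromosome 15 (78325800 to 78351001 and 78282507 to 78305721) and near copies, so their reads can be hard to tell apart. Their aligned coding sequences, of 2691 and 2637 bases, were 95.2% identical, with 126 differing bases of 2631. Of the 150-base windows of the transcripts, 3.58% of Csf2rb and 3.59% of Csf2rb2 occurred in the other gene, and the authors removed alignments of low mapping quality. The 60-base coding stretch with most differences is printed for each from GRCm38, with the 13 differing bases in capitals.
Csf2rb, coding bases 304 to 363: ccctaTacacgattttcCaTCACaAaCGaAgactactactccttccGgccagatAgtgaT
Csf2rb2, coding bases 307 to 366: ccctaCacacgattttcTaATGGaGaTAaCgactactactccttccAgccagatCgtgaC

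Csf2ra, the alpha chain that binds GM-CSF, was flat in BMDM-WT, at 161, 173, 147 and 162 CPM at 0 h and 160.2, 159.9, 160.5 and 166 at 5 h. In BMDM-Nur77-KO it was 145, 187, 177 and 203 CPM at 0 h and 427, 234, 191 and 200.4 at 5 h. The highest knockout library at 5 h was again replicate 1, here standing above the others. The genotype difference at 5 h was a log2 fold change of 0.70 ± 0.16 (adjusted p = 0.0030). Without that library it was 0.37 (adjusted p = 0.029) and with the GC covariate 0.47 (adjusted p = 0.014), and in a fit to those 8 libraries alone it was 0.69 (adjusted p = 0.12), so the call was lost each time. At 1 h, where no library stood apart in GC content, the knockout had 205, 191, 203 and 204 CPM and the wild type 131, 151, 142 and 144. These groups did not overlap, but the difference of 0.50 ± 0.16 did not pass (adjusted p = 0.066). With the GC covariate the 1 h difference was 0.56 (adjusted p = 0.0017), which failed the limit on the fold change alone. Over the other alternative fits to all libraries or the compared ones, DESeq2 included, it stayed at 0.50, under that limit. Its adjusted p there ranged from 2.6e-05 to 0.080. Csf2ra lies on chromosome 19 (61217191 to 61228461).

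Il3ra, the alpha chain of the IL-3 receptor (chromosome 14, 14345912 to 14355493), was the least abundant receptor, at 7.20 to 37.7 CPM over the 32 libraries. It passed no limit in the 17 comparisons. In BMDM-Nur77-KO it had 12.0, 13.6, 14.3 and 17.7 CPM at 0 h and 27.5, 32.1, 37.7 and 12.9 at 18 h. Replicate 4 at 18 h, of low GC content, lay among the 0 h levels and the others above them. The response of 0.94 ± 0.24 (adjusted p = 0.0012) was under the limit and became 1.17 (adjusted p = 1.3e-05) without that library. With the GC covariate, the 5 h response went from 0.24 to 1.23 in BMDM-WT and from 0.28 to 1.197 in BMDM-Nur77-KO, past the limit. The antisense gene Gm48860 overlaps 990 bases of Il3ra.

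**Figure D3:**
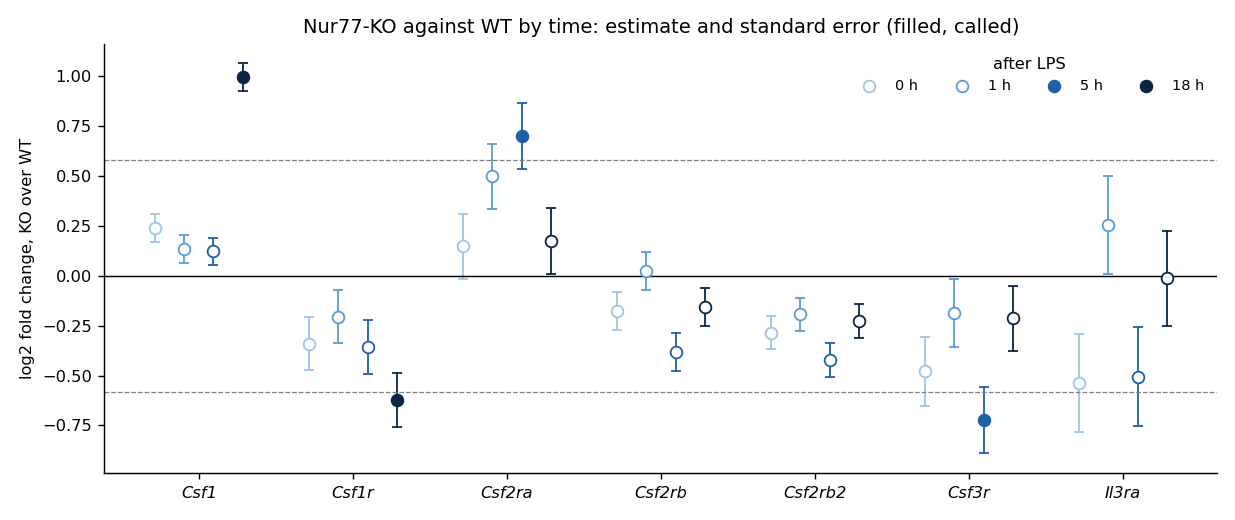
Log2 fold change of BMDM-Nur77-KO against BMDM-WT for the tested genes other than Csf2 at each time, with bars of 1 SE from edgeR and filled points for called differences. Csf1 stands at 0.99 at 18 h with 0.24, 0.13 and 0.12 at the earlier times, and the receptors other than Csf2ra lie mostly below 0.

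Within groups, the levels of 5 of the 6 receptors moved with the GC content of the library's tags. Over the 32 libraries, the deviation from the group mean correlated with that of the tag GC content with Pearson's r of 0.91 for Csf1r and Csf2rb, 0.88 for Il3ra, 0.87 for Csf3r and 0.82 for Csf2rb2. For Csf2ra it was -0.52, for Csf1 0.16 and for Csf2 -0.37. The points share depth and base composition, and no test was made. How many of all tested genes follow the GC content as closely was not computed. The libraries furthest from their group in GC content were the 2 that stood apart, at -1.08 and -0.80 percentage points. The transcripts themselves hold 61.5% GC for Csf2ra, 65.9% for Il3ra, 54.4% for Csf1 and 53.9% for Csf1r, and the part of this was not tested. The deviations of these 5 receptors also correlated with each other, at 0.94 for Csf1r with Csf2rb and 0.95 for Csf2rb with Csf2rb2, whereas those of Csf2ra correlated with them at -0.70 to -0.46. Csf1 is not among these, and its 18 h difference between the genotypes was 1.00 with the GC covariate (adjusted p = 1.1e-14), with an interaction of 0.75 (adjusted p = 6.7e-08).

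**Figure D4:**
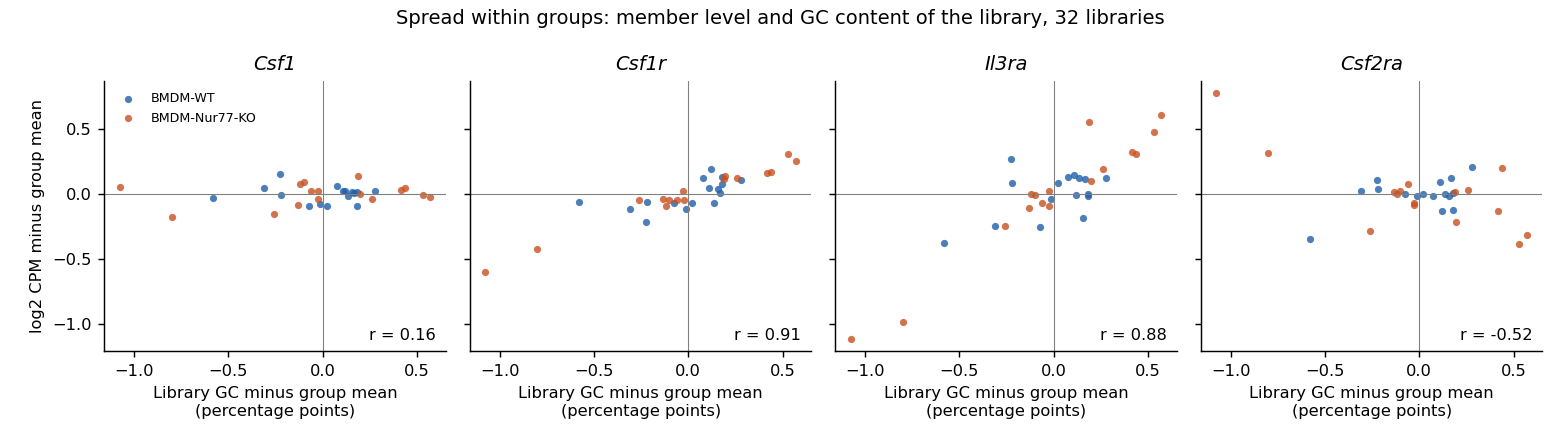
Deviation of log2 CPM from the group mean against that of the GC content of the library's tags, in percentage points, for Csf1, Csf1r, Il3ra and Csf2ra in 32 libraries. Csf1r and Il3ra follow the GC content (r of 0.91 and 0.88), Csf2ra runs against it (-0.52) and Csf1 shows little relation (0.16).

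On a scale per transcript length, RPKM, the order of the mean levels in BMDM-WT at 0 h was Csf1r at 478 ± 58 (SD, n = 4), Csf2rb2 at 95.9 ± 11, Csf2ra at 87.0 ± 5.8, Csf2rb at 60.6 ± 6.8, Csf1 at 16.7 ± 1.4, Csf3r at 15.7 ± 2.6 and Il3ra at 12.9 ± 1.9, with Csf2 and Csf3 at 0. The ranges of Csf2rb2 and Csf2ra overlapped, as did those of Csf1 with Csf3r and of Csf3r with Il3ra, so these neighbours did not differ beyond their spread. The RPKM ratio of the common beta chain Csf2rb to the alpha chain Csf2ra went from 0.703 at 0 h to 1.44 at 5 h in BMDM-WT and from 0.562 to 0.782 in BMDM-Nur77-KO, where the 5 h libraries spread from 0.329 to 1.03 and averaged 0.934 without replicate 1. Csf2rb2 over Csf2rb went from 1.58 to 1.00 and from 1.47 to 0.982, so the beta chains reached near equal levels at 5 h in both genotypes. The ligand to receptor ratio of Csf1 over Csf1r went from 0.0355 at 0 h through 0.107 and 0.281 to 0.0667 at 18 h in BMDM-WT. In BMDM-Nur77-KO it went from 0.0525 through 0.135 and 0.420 to 0.207, or 0.348 at 5 h and 0.195 at 18 h without the libraries of low GC content. At 18 h the knockout libraries, at 0.187 to 0.244, lay above the wild type at 0.0629 to 0.0692. They lay above it at the earlier times too, by less at 0 and 1 h. The lowest knockout and highest wild-type values were 0.0481 and 0.0454 at 0 h, and 0.1208 and 0.1198 at 1 h. At 5 h they were 0.325 and 0.291.

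**Figure D5:**
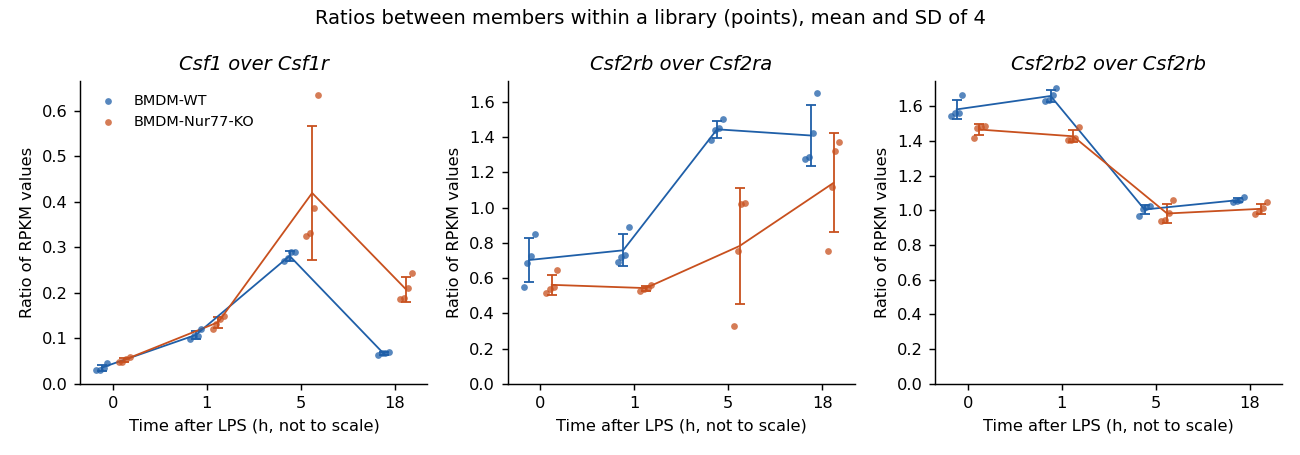
RPKM ratios between genes by hours of LPS, for each library (points) with the mean and SD of each group of 4, in BMDM-WT and BMDM-Nur77-KO. Csf1 over Csf1r peaks at 5 h and stays at 0.187 to 0.244 in BMDM-Nur77-KO at 18 h, against 0.0629 to 0.0692 in BMDM-WT. The knockout libraries lie above the wild type at every time, including before LPS.

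The rest of the pathway was described with 5 lists of 54 genes, of which 48 were tested. Of the other ligands and receptors, Il34, the second ligand of the M-CSF receptor, had at most 7 counts in a library, Il3 and Il5 had 0, Flt3 and Il5ra at most 4 and Kit at most 79, and none was tested. At 1 h of LPS in BMDM-WT, 7 of the 48 rose and 0 fell: the inhibitors Socs3 and Cish, and Cebpb, Myc, Pim1, Osm and Egr2 among the transcription factors and targets, beside 5.19% of all genes in either direction. At 5 h, 19 rose and 6 fell in BMDM-WT (33.7% of all genes), and 16 rose and 6 fell in BMDM-Nur77-KO (32.6%). At 18 h the counts were 14 and 7 in BMDM-WT (27.4%) and 16 and 6 in BMDM-Nur77-KO (31.8%). Without the library of low GC content, the knockout counts were 17 and 6 at 5 h and 16 and 6 at 18 h. The lists were chosen with results of these data known, and for each list as a whole only counts and medians are given. Values of single genes are mostly those of up to 4 per list with the smallest adjusted p in the comparison described. Their p-values are thus of genes picked by those p-values.

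Of the 20 signal transducers, 10 rose and 0 fell at 5 h in BMDM-WT, with a median log2 fold change of 1.03 against -0.14 over all genes. Jak2, the kinase bound to the common beta chain, went from a mean of 41.1 CPM at 0 h to 1358 at 5 h (log2 fold change 5.05 ± 0.15, adjusted p = 6.4e-23). Stat5a, the main Stat factor of GM-CSF signalling, went from 18.9 to 259 CPM (3.78 ± 0.13) and Stat3, that of G-CSF signalling, from 92.4 to 629.8 CPM (2.77 ± 0.09). Lyn, a Src family kinase at these receptors, rose by 1.80 ± 0.07. Among the 12 inhibitors 4 rose and 3 fell. Socs3, which limits G-CSF receptor signalling, went from 1.11 to 1016 CPM (9.81 ± 0.26), and Cish from 0.420 to 11.7 CPM (4.77 ± 0.32). The lipid phosphatase gene Inpp5d and the adaptor gene Sh2b3 fell, with log2 fold changes of -2.29 and -1.74. Of the 12 transcription factors and targets 4 rose, among them Pim1 (3.01) and Irf8 (2.90), and 3 fell, among them Cebpa (-4.66) and Myc (-2.48). Adam17, a protease that sheds the M-CSF receptor, rose from 281 to 626.7 CPM and Adam10 stood at -0.08 (adjusted p = 0.60).

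Between the genotypes at 18 h, 7 of the 48 pathway genes passed as higher in BMDM-Nur77-KO and 2 as lower, beside 9.82% of all genes in either direction. The median of the 48 was 0.07, against -0.01 over all genes, and that of the 20 signal transducers was -0.01, with 3 of them higher and 1 lower. Stat3 averaged 474 CPM in BMDM-Nur77-KO and 296 in BMDM-WT (log2 fold change 0.68 ± 0.08, adjusted p = 2.4e-07), Jak2 765 and 425 CPM (0.85 ± 0.13, adjusted p = 9.0e-06) and Stat5a 42.7 and 27.2 CPM (0.65 ± 0.12, adjusted p = 0.00016). Without replicate 4 of the knockout these differences were 0.73, 0.72 and 0.70, and all 3 passed. Kitl, the ligand of Kit, was higher by 0.86 and the inhibitor Socs1 by 0.95. Without that library they were 0.69 and 1.21. Myc and Egr2, named after their values were seen, were also higher, but did not pass without that library, which left 5 higher and 2 lower. The lower genes were the Src family kinase gene Fgr (-0.96 ± 0.13, adjusted p = 7.5e-07) and the docking protein gene Dok2 (-1.33 ± 0.21, adjusted p = 1.1e-05). At 0 h, 2 were higher (Socs2 and Egr2) and 1 lower (Socs3), beside 4.81% of all genes. At 1 h the counts were 0 and 1 (Osm), beside 2.86%, and at 5 h 0 and 1 (Ccnd1), beside 8.75%, all named after their values were seen. Without replicate 1 of the knockout at 5 h, Cish also passed as higher. The response at 18 h relative to 0 h differed for 8 upward and 2 downward, beside 9.41% of all genes, and for 10 and 2 without replicate 4 of the knockout.

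The genes with the most similar profile over the 32 libraries, by Pearson's r of log2 CPM, were taken as the 3 closest for each tested gene. For Csf1 they were the chemokine gene Ccl3 (0.986), Serpinb2 (0.982) and Tnfsf4 (0.980). For Csf2 they were Ifrd1 (0.981), Kdm6b (0.974) and Ppp1r15a (0.967). For Csf3r they were H2-T23 (0.988), Npc2 (0.984) and Ly6e (0.984), for Csf1r Ap1b1 (0.967), Bin1 (0.963) and Abcc3 (0.955), and for Csf2rb Cmtr1 (0.978), Gm28043 (0.977) and Plod3 (0.977). For Il3ra they were Skiv2l (0.940), Nr1h2 (0.931) and Vps51 (0.929). Csf2rb2 and Csf2ra had looser matches, to Ifi27l2a (0.889), Sec13 (0.889) and Pld2 (0.877), and to Arglu1 (0.860), Srsf11 (0.857) and Rrp1 (0.848). These correlations hold the differences between times and share the GC content of the libraries.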

How the data were processed

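RNA-seq was analysed for 32 libraries of BMDMs, 4 for each genotype and time. The authors aligned read pairs of 150 bases to mm10 with HISAT2 2.1.0, dropped poorly mapped reads (SAMtools), and summed tags per RefSeq transcript in HOMER. Their deposited table holds expected counts, not normalized, in steps of 0.5, of which 28.6% are not whole; the counts were rounded to whole numbers. Per the labels, base calling used CASAVA 1.8.2. Of 42361 transcripts, 93 had no name (0.233% to 1.37% of tags) and were left out, and the transcript with the highest mean count stood for each of 25067 genes. Totals per library were 8742362 to 15780926 (median 11847140).

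edgeR 4.0.16 (R 4.3.3) fitted 8 group means over all libraries after TMM scaling, on the 11281 genes whose group mean exceeded 1 RPKM anywhere, with the quasi-likelihood test and Benjamini-Hochberg adjustment. The limits were an adjusted p under 0.05 with a log2 fold change over 1 for time and over 0.58 for genotype. The script was tested on simulated data. A level of 0 was set against 3 counts per library. Intervals of log2 fold changes are a normal approximation from the SE. Intervals of ratios of counts are exact at 95% and cover counting error only. Members, gene lists, tests and named genes were chosen with earlier results of these data known. The genes named are all members, up to 4 per pathway list with the smallest adjusted p, and the 3 closest profiles. Alternatives were DESeq2 1.42.0, its size factors, filterByExpr (12215 genes), the compared libraries only, replicate blocks, summed transcripts (10766 genes), no limit on the fold change, and leaving out libraries. After seeing the data, the GC content of each library's tags was added as a covariate, from GC values for 92.2% of the genes tested.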

Additional observations from a re-analysis of the deposited data

Results flagged for a closer look

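Of 64 sets of 4 libraries, 10 held a library whose gap to the nearest other, relative to the range, was above Dixon's 95% critical value, where chance gives about 1 in 20. Csf2 was highest in BMDM-WT at 5 h replicate 4 (0.946 CPM) and in BMDM-Nur77-KO at 18 h replicate 4 (0.982 CPM). Csf1r was highest in BMDM-Nur77-KO at 0 h replicate 4 (1642 CPM) and at 1 h replicate 1 (1765 CPM), and lowest at 18 h replicate 4 (549 CPM). Csf2rb (287 CPM) and Csf2rb2 (421 CPM) were also highest in BMDM-Nur77-KO at 0 h replicate 4, the library with the highest tag GC content of its group (49.7%). Csf2ra was highest in BMDM-WT at 5 h replicate 4 (166 CPM) and lowest in BMDM-Nur77-KO at 1 h replicate 2 (191 CPM), in groups with a narrow range. Il3ra was lowest in BMDM-WT at 18 h replicate 3 (21.2 CPM).

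The response of Csf1 at 18 h relative to 0 h differed between the genotypes by 0.75 on the log2 scale, tested as an interaction in edgeR's quasi-likelihood test (adjusted p = 3.0e-06).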

How the results depend on the processing

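Of 2397 fold changes of members under an alternative, 2308 kept their direction and side of the limits, 62 passed where the reported value did not, 27 no longer passed and 0 turned direction with a call. Without a limit on the fold change, the members called were 6 for LPS in BMDM-WT at 18 h (66.2% of all genes) and 7 from 1 to 5 h (64.8%). They were 7 and 7 for LPS in BMDM-Nur77-KO at 5 and 18 h (71.2% and 69.2%) and 6 and 5 for its steps (70.7% and 68.8%). Between the genotypes they were 2 and 4 at 0 and 5 h (12.7% and 24.2%). The step of BMDM-Nur77-KO from 1 to 5 h gave 2 under DESeq2, its size factors and the compared libraries only, since Csf3r passed. With the compared libraries only, 0 remained between the genotypes at 5 h and 1 appeared in the interaction at 1 h (Il3ra, 0.77). With library GC content as a covariate, chosen after seeing the data, the counts were 1 for the BMDM-WT step from 5 to 18 h (Csf3r at 0.62), 5 for LPS in BMDM-Nur77-KO at 5 h, 3 for its step from 1 to 5 h, 0 between the genotypes at 5 h, and 1 and 2 in the interactions at 5 and 18 h (Csf2rb at -0.22, Csf1r at -0.36). The cause of these shifts was not tested. Leaving out a library gave 1 to 2 members for LPS in BMDM-WT at 18 h, 3 to 4 at 5 h, 2 to 4 for LPS in BMDM-Nur77-KO at 18 h, 1 to 2 for its step from 1 to 5 h, and 0 to 3 and 1 to 3 between the genotypes at 5 and 18 h. Without BMDM-Nur77-KO at 5 h replicate 1, a setting added for the pathway genes after seeing the data, 2 of them were called between the genotypes at 5 h in place of 1.

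Over all genes, the counts between the genotypes at 5 h were 987 in the reported fit, 308 with the compared libraries only, 567 with the GC covariate and 2726 without a fold limit, and 545 to 1711 leaving out a library. The interactions gave 8, 349 and 1061 genes, and 34, 1600 and 2488 with the GC covariate. At 1 h the interaction gave 25 with DESeq2, 274 with the compared libraries only, 3 with the replicate block within genotype and 2 to 9 leaving out a library, and at 5 h 166 with the compared libraries only. Without a fold limit the LPS response called 2291, 7901 and 7469 genes in BMDM-WT and 1379, 8037 and 7806 in BMDM-Nur77-KO, the steps 7309, 7798, 7975 and 7762, and the genotypes 1430, 734 and 2421 at 0, 1 and 18 h.

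Replicate numbers did not pair the libraries: deviations of same-numbered libraries of both genotypes at 1 time correlated at -0.37 to 0.25 over 16 pairs, 7 of them over 0.1. With a replicate block, Csf2 was no longer called in BMDM-WT at 18 h, leaving 1 member (adjusted p = 0.053, and 0.070 with the replicate block within genotype), or between the genotypes at 18 h (adjusted p = 0.054); no other member's call changed. Depth limits Csf2 after 1 h and Csf3 throughout, at 0 to 12 counts per library.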
